A study of Rattus norvegicus with 12 samples.

Results

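Hmgcs1, Insig1, Insig2, Sqle, Idi1, Fdps, Srebf1 and Srebf2 code for enzymes and regulators of cholesterol supply, and every probe that the array files name by one of these 8 symbols was taken. That gave 20 probes out of 41012 on the array. The samples were PC12 cells, a line from a rat adrenal pheochromocytoma, grown in medium with foetal bovine and horse serum and treated with PACAP38, a neuropeptide that acts through G protein-coupled receptors, at 1e-07 M for 5, 10, 15, 30, 60 or 120 min. Each time point had a control of the same cells that carries the same time in its labels, and RNA was pooled in each group (n = 6). The study looked for early factors of the neurite outgrowth that PACAP38 induces. The PACAP38 and the control pool of each time point shared 2 arrays, with the dyes exchanged on the second, so a time point is 1 replicate of 1 cell line. Values of both arrays are given where an error would be, and a single time point allowed no test of PACAP38 against control.

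Cells make cholesterol from acetyl-CoA through mevalonate, isoprenoid diphosphates and squalene. The transcription factors SREBP-1 and SREBP-2, made from Srebf1 and Srebf2, are held in the endoplasmic reticulum with Scap and the Insig proteins while sterols are plentiful. When sterols run low they are released, cut in the Golgi and raise transcription of the enzymes of the pathway and of Insig1 itself.

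In the PACAP38-treated cells, Insig1 and Idi1 were the genes of this group that stood higher than the control on both arrays of every probe from 30 min on, and they reached about 2-fold at 60 and 120 min. One of the 3 Fdps probes was also higher at 120 min, while the other Fdps probes, Hmgcs1, Sqle, Insig2 and Srebf2 stayed near their controls. Srebf1 was lower at 120 min on its brighter probe. The plot of both arrays for the 8 genes shows these courses.

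**Figure D1:**
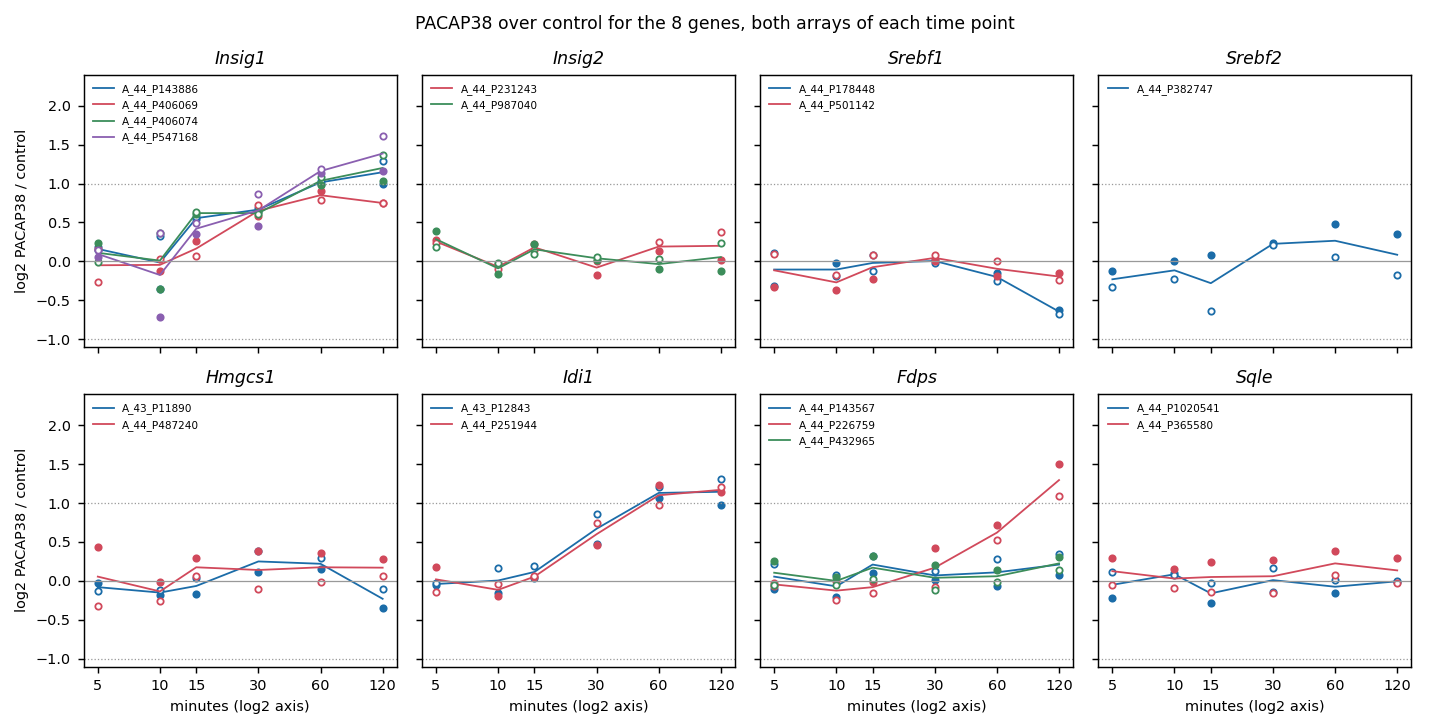
Log2 ratio of PACAP38 to control against time in minutes (log2 axis) for the 18 probes that were well above background on all 12 arrays, in 1 panel per gene. Filled points are the array with PACAP38 in Cy5, open points the array with PACAP38 in Cy3, lines join their means, and dotted lines mark a 2-fold difference. Insig1 and Idi1 climb from 15 or 30 min on, and of Fdps only the probe A_44_P226759 does.

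The promoters of Insig1 and Idi1 are shown with those of Hmgcs1 and Fdps, whose probes (for Fdps, both of the brighter ones) stayed near 0. They run from 250 bases before to 50 bases after the start of the gene in RefSeq (build GRCr8), written 5′ to 3′. Capitals mark matches, on either strand, to the sterol regulatory element (TCACNCCAC), the E-box (CACGTG), the CCAAT box (CCAAT), which the factor NF-Y binds, the cAMP response element (TGACGTCA) and its first bases alone (TGACG, which overlaps it).
Insig1 promoter (chr4:8057720-8058019, minus strand): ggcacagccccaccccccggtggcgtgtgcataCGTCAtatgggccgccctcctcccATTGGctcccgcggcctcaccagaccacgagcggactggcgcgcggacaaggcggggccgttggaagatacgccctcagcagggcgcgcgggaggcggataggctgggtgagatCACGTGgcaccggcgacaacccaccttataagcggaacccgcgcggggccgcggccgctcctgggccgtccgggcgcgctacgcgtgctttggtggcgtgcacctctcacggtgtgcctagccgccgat
Idi1 promoter (chr17:66547475-66547774, minus strand): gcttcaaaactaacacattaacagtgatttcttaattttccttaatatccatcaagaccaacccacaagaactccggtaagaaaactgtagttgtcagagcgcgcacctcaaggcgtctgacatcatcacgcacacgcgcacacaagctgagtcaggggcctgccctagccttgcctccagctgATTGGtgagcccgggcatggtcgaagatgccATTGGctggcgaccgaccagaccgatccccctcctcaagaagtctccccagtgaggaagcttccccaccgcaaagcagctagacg
Hmgcs1 promoter (chr2:53382054-53382353, plus strand): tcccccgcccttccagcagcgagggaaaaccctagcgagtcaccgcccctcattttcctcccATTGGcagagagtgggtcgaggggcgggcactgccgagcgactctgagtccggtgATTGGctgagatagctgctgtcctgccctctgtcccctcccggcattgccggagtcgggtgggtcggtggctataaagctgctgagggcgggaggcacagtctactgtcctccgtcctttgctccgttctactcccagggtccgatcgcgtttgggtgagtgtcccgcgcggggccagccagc
Fdps promoter (chr2:176804767-176805066, minus strand): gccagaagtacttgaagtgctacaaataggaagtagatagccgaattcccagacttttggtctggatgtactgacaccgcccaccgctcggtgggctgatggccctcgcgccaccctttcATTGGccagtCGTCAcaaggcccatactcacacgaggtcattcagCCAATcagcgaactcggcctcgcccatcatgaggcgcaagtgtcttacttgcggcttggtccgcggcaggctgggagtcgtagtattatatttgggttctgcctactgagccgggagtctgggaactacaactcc

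A promoter was in the table for 7 of the 8 genes, with 2 for Srebf1. The CCAAT box was in 8 of 8 of these promoters, against 37.5% of all 33469 promoters of the table. The E-box was in 1, that of Insig1, against 6.42% of all promoters. TGACG was in 3, those of Insig1, Fdps and Srebf2, against 21.2%. Neither the sterol regulatory element, found in 1.12% of all promoters, nor the full cAMP response element, found in 1.83%, was in any of the 8 with exactly these letters. CCAAT was thus in the promoters of genes that were counted as higher below and of genes that were not.

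The oligonucleotides of Fdps, 60 bases each and written 5′ to 3′ in lower case, are printed because its probes disagreed, and that of Idi1 because it is split over 405 bases of the genome. Positions are as annotated in the array files, on rat build rn4.
Fdps A_44_P143567 (chr2:181169679-181170179, minus strand): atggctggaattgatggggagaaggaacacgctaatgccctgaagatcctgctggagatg
Fdps A_44_P432965 (chr2:181170192-181170336, minus strand): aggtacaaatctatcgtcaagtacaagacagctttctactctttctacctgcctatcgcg
Fdps A_44_P226759 (chr2:181158404-181158463, minus strand): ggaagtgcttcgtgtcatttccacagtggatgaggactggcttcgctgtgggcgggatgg
Idi1 A_44_P251944 (chr17:72560094-72560498, minus strand): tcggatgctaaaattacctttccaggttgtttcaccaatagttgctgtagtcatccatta

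The PC12 identity of the RNA was checked on marker genes. All 9 chromaffin markers with a probe, among them Th, Ddc, Slc18a1 and Chga, were well above background on all 12 arrays with control RNA, and none of 6 adrenal cortex markers was on any array. Summed, the processed intensity of the chromaffin markers was 183000 to 367000 in the control channel and 186000 to 417000 in the PACAP38 channel, against 35.7 to 80.9 and 36.5 to 69.6 for the cortex markers. Of 5 fibroblast markers Col1a1 and Pdgfra, and of 5 leukocyte markers Cd68, were above background on all 12 arrays with control RNA. Col1a2 was above it on 11 of these arrays and Dcn on 5, while Lum and the other 4 leukocyte markers were on 0 arrays. Summed over the whole list, intensities were 187 to 394 in the control channel and 196 to 279 with PACAP38 for the fibroblast markers, and 117 to 251 and 128 to 464 for the leukocyte markers. At 120 min the mean log2 ratio of Cd68 was 0.95, that of Pdgfra -1.13 and that of Col1a1 0.21, and none of these was counted. The part of these cells in the results was not tested. Between 38.4 and 49.6% of the spots of an array passed the scanner software's test for signal well above background with control RNA and 39.8 to 48.9% with PACAP38 RNA, and none was saturated. In bulk RNA, fewer cells that use a gene and less RNA per cell cannot be told apart.

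A member was counted where its probe's ratio was at least 2-fold in the same direction with a spot p-value of the scanner software below 0.01 on both arrays. Of the 20 probes, 18 were well above background in both channels on all 12 arrays. The other 2 were the Insig2 probe A_44_P1071390, above background on 0 arrays, and the Srebf2 probe A_44_P504215, above it on 1 array for PACAP38 and on 0 for the control, and no fold is given for them, though the latter entered the probes above background in at least 1 pool at 60 min. At 5, 10, 15 and 30 min none of the members was counted, where 0%, 0.143%, 0.192% and 0.534% of all probes above background in at least 1 pool were counted as higher. At 60 min 3 of 19 member probes (15.8%) were counted as higher, from Insig1 and Idi1, against 1.66% of all such probes, and none as lower, against 0.716%. At 120 min 4 of 18 (22.2%) were counted as higher, from Insig1, Idi1 and Fdps, against 3.86%, and none as lower, against 3.03%. Probes of 1 gene share their transcript, so these shares stand for 2 and 3 genes.

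Other background correction ended most of the counts at 2-fold. With normexp correction (offset 50) and loess, 1 member probe was counted after 60 min, where 0.711% of all probes were counted as higher, and 0 after 120 min, where 1.42% were. The mean log2 ratios after 120 min were then 1.05 and 0.98 for Idi1, 1.19 for the distant Fdps probe and 0.67 to 1.06 for Insig1. With normexp and median centring 0 were counted at both times, against 0.507% and 0.865% of all probes, and the ratios counted at 120 min were 0.77 for Idi1 A_44_P251944, 0.75 for Insig1 A_44_P406074 and 0.98 for the distant Fdps probe. The dimmest Insig1 probe, A_44_P547168, went from 1.39 at 120 min to 0.67 with loess and to 0.53 with median centring. On the brightest probe of each gene alone, 1 was counted after 60 min and 0 after 120 min, and the share over all genes was not computed.

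The median log2 ratio of the measured member probes was, from the first to the last time point, 0.03, -0.08, 0.13, 0.15, 0.22 and 0.20, against medians over all measured probes between -0.02 and 0.00. With normexp and median centring the members' median was 0.06 at 10 min and -0.02 at 120 min, on the other side of 0. At 60 min the members ran from -0.20 to 1.16, and the central 90% of all measured probes from -0.54 to 0.55. At 120 min they ran from -0.64 to 1.39, against -0.98 to 0.97. The members lay furthest apart at 120 min. The 2 arrays of a time point differed by a median of 0.15 to 0.28 in log2 ratio over the 18 probes, and by up to 1.07 at 10 min.

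Insig1, the sensor that retains Scap and the SREBPs and is itself an SREBP target, was counted on 3 of its 4 probes. All 4 lie on the minus strand of chromosome 4 within chr4:2577508-2578760 (rn4). On the brightest, A_44_P406069, the log2 ratio with PACAP38 in Cy5 and in Cy3 was 0.16 and -0.26 after 5 min, -0.12 and 0.03 after 10 min, 0.26 and 0.07 after 15 min, 0.58 and 0.72 after 30 min, 0.91 and 0.79 after 60 min and 0.75 and 0.75 after 120 min. Both arrays were above 0 from 15 min on, and the values of 30 to 120 min did not overlap those of 5 to 15 min. This probe stayed below 2-fold, at 1.81-fold after 60 min and 1.68-fold after 120 min, and was never counted.

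The other Insig1 probes gave larger ratios at 60 and 120 min without normexp correction. With normexp and loess the dimmest was instead at the low end of the Insig1 range at 120 min. A_44_P547168, the dimmest, had log2 ratios of 1.13 and 1.19 after 60 min and of 1.16 and 1.61 after 120 min, or 2.24-fold and 2.61-fold, and was counted at both times. A_44_P143886 was counted after 60 min, with 1.00 and 1.03, and not after 120 min, where its folds were 1.99 and 2.44. A_44_P406074 was counted after 120 min, with 1.03 and 1.37, and not after 60 min, where it had 0.98 and 1.09. The calls of the latter probes therefore turned on values within hundredths of the 2-fold limit, while all 4 probes lay on the same side of the control.

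Insig1 was also the 1 gene with a probe past 1.5-fold on both arrays at 15 min. There its probes A_44_P143886, A_44_P406074 and A_44_P547168 had mean log2 ratios of 0.55, 0.62 and 0.42, with both arrays above 0 on each, when both Idi1 probes were at 0.11 and 0.05. The control pool was low at that time on the first of these probes, with a log2 level of 12.19 against 12.46 at 5 min, while the PACAP38 pool had 12.74 against 12.62. On A_44_P406074 the control had 9.08 against 9.41, its lowest level, and the PACAP38 pool 9.69 against 9.52, so the control pools differed more between 5 and 15 min than the PACAP38 pools did on both probes. On A_44_P547168 it was the other way round, with 6.91 against 7.03 in the control and 7.34 against 7.13 with PACAP38, and on A_44_P406069 both were higher at 15 min, with 13.25 against 13.05 and 13.41 against 13.01. At 10 min the same 3 probes were below 0 with PACAP38 in Cy5 and above 0 in Cy3, by -0.36 and 0.33, -0.35 and 0.37, and -0.71 and 0.36, so no direction can be given there. Ordered along the transcript from its 5′ side, the 4 probes had log2 ratios at 120 min of 1.39, 1.20, 1.14 and 0.75, and mean control levels of 7.06, 9.45, 12.35 and 13.08 on the log2 scale. The ratio thus fell along the transcript as the brightness rose, and position and brightness cannot be told apart with 4 probes. This order depended on the background correction. With normexp and median centring A_44_P547168, the first along the transcript, had 0.53 at 120 min and A_44_P406074, the next, had 0.75.

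Idi1, which turns isopentenyl diphosphate into the dimethylallyl diphosphate that starts the isoprenoid chain, gave the same course on both of its probes (chr17:72557224-72557283 and chr17:72560094-72560498, minus strand, rn4). On the brighter, A_43_P12843, the log2 ratio in Cy5 and Cy3 was -0.05 and -0.03 after 5 min, -0.16 and 0.17 after 10 min, 0.04 and 0.19 after 15 min, 0.48 and 0.86 after 30 min, 1.06 and 1.20 after 60 min and 0.98 and 1.31 after 120 min. The values of 30 min lay between those of the earlier and the later times, with no overlap on either side, and 60 and 120 min could not be told apart. Processed intensities at 60 min were 6990 with PACAP38 and 3350 in the control on the array with PACAP38 in Cy5, and 8670 and 3770 on the array with PACAP38 in Cy3. The split probe A_44_P251944 had log2 ratios of 0.46 and 0.74 after 30 min, 1.23 and 0.97 after 60 min and 1.14 and 1.20 after 120 min. The mean folds were 2.19 after 60 min on the first probe and 2.26 after 120 min on the second, which are the times at which each was counted.

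Levels were also set on 1 scale across arrays. The PACAP38 pools covered a wider range than the control pools on the Insig1, Idi1 and distant Fdps probes, and a narrower one on others, such as Hmgcs1 A_43_P11890 with 0.30 against 0.65 and Srebf2 A_44_P382747 with 0.64 against 0.84. For the Idi1 probe A_43_P12843 the log2 level of the 6 control pools lay between 11.65 and 11.91, while that of the PACAP38 pools went from 11.86 after 5 min to 12.37 after 30 min, 12.79 after 60 min and 12.92 after 120 min. For the Insig1 probe A_44_P406069 the control pools lay between 12.86 and 13.25 and the PACAP38 pools went from 13.01 after 5 min to 13.94 after 120 min. The Insig1 control pool was lowest at 30 min, which adds to the ratio of that time. Each slide carried 2 time points, 5 and 10, 15 and 30, or 60 and 120 min, so a step between such pairs cannot be told apart from a step between slides.

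**Figure D2:**
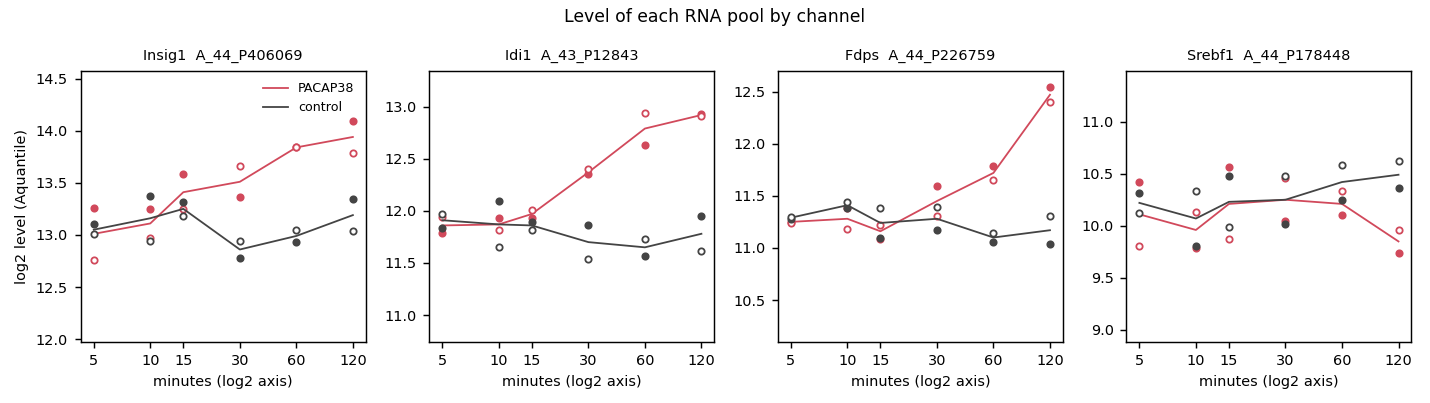
Log2 level of the PACAP38 pool and of the control pool against time in minutes (log2 axis) for 1 probe each of Insig1, Idi1, Fdps and Srebf1. Filled and open points are the arrays with PACAP38 in Cy5 and in Cy3, and lines join their means. For Insig1, Idi1 and Fdps the PACAP38 line leaves a control line that spans at most 0.39, and for Srebf1 both lines part at 120 min.

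Fdps makes farnesyl diphosphate, the branch point towards sterols, ubiquinone and prenylated proteins, and its probes disagreed. The brightest, A_44_P432965, had log2 ratios of 0.14 and -0.02 after 60 min and of 0.31 and 0.14 after 120 min, and A_44_P143567 had -0.06 and 0.28 and then 0.08 and 0.34. Neither left the range that it covered at 5 to 30 min by more than the gap between its arrays. A_44_P226759 had -0.03 and -0.06 after 5 min, 0.00 and -0.25 after 10 min, -0.01 and -0.15 after 15 min, 0.42 and -0.08 after 30 min, 0.72 and 0.52 after 60 min and 1.5 and 1.09 after 120 min. Its intensity at 120 min was 8580 with PACAP38 against 3030 with PACAP38 in Cy5 and 7270 against 3410 with PACAP38 in Cy3, a mean of 2.46-fold.

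The Fdps probe that was counted lies apart from the others. A_44_P143567 and A_44_P432965 are 13 bases from each other on rn4, and A_44_P226759 lies 11.2 kb away, further along the direction of transcription. The files tie it to an Ensembl transcript and the other probes to the RefSeq transcript of Fdps. In GRCr8 the next gene on that side of Fdps, on the same strand, is Rusc1, for which no probe on the array carries that symbol. Whether this oligonucleotide reads Fdps RNA was not tested. Without it, 3 member probes were counted at 120 min, from Insig1 and Idi1.

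Hmgcs1, an early enzyme of the mevalonate pathway, did not share the course of Idi1. Its brighter probe A_43_P11890 (chr2:51754420-51754478, rn4) had log2 ratios in Cy5 and Cy3 of -0.03 and -0.13 after 5 min, -0.18 and -0.12 after 10 min, -0.17 and 0.04 after 15 min, 0.12 and 0.38 after 30 min, 0.15 and 0.29 after 60 min and -0.35 and -0.11 after 120 min. Both arrays were above 0 at 30 and 60 min and below 0 at 120 min. The second probe, A_44_P487240, stayed between -0.13 and 0.17 in its means and did not follow this turn at 120 min, where it had 0.28 and 0.06.

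Sqle, which adds oxygen to squalene before the ring is closed, had mean log2 ratios between -0.16 and 0.09 on A_44_P1020541 and between 0.03 and 0.23 on A_44_P365580. On A_44_P365580 the array with PACAP38 in Cy5 was the higher at all 6 time points. At 5 min the control level on this probe differed by 2.64 on the log2 scale between the 2 arrays, far above the next such gap among the 18 probes, 0.88, yet its ratios there were 0.30 and -0.05.

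Insig2, the second sensor, had means between -0.08 and 0.26 on A_44_P231243 and between -0.09 and 0.29 on A_44_P987040. The highest of these were at 5 min, with 0.28 and 0.23 on the first probe and 0.39 and 0.18 on the second, and neither probe reached 1.5-fold on both arrays at any time. Insig1 and Insig2 thus differed at 120 min by more than the gap between arrays, with means of 0.75 to 1.39 against 0.20 and 0.05.

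Srebf1 codes for SREBP-1, which serves fatty acid synthesis above all. Its brighter probe A_44_P178448 (chr10:46462235-46462294, minus strand, rn4) had log2 ratios in Cy5 and Cy3 of 0.11 and -0.32 after 5 min, -0.02 and -0.19 after 10 min, 0.08 and -0.12 after 15 min, 0.03 and -0.02 after 30 min, -0.15 and -0.25 after 60 min and -0.62 and -0.67 after 120 min. Only the 120 min pair lay clear of the others, with intensities of 1220 against 1870 and of 1340 against 2120, a mean of 0.640-fold. The second probe, A_44_P501142, which is printed 10 times on each array and lost 5 spots to outlier flags over the 12 arrays, had -0.15 and -0.24 at 120 min. These values overlapped those of the same probe at 10 min, -0.37 and -0.17, so it did not stand apart at 120 min.

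Srebf2, whose product SREBP-2 drives the cholesterol enzymes, was read by 1 probe above background, A_44_P382747. Its means ran from -0.28 after 15 min to 0.26 after 60 min, with 0.35 and -0.18 after 120 min. The arrays of a time point differed in sign at 15 and 120 min, and no direction can be given there.

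With the limit set at 1.5-fold on both arrays, 1 member probe was counted as higher after 15 min (5.56%, against 0.286% of all probes above background), 2 after 30 min (11.1%, against 0.874%), 6 after 60 min (31.6%, against 2.69%) and 7 after 120 min (38.9%, against 6.01%). Those at 15 and 30 min were Insig1 probes. Those after 60 min were all 4 probes of Insig1 and both of Idi1, and the distant Fdps probe joined them after 120 min. At 120 min 1 probe, Srebf1 A_44_P178448, was counted as lower (5.56%, against 7.64%).

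The course over time was fitted for each probe as a slope of the mean log2 ratio on log2 minutes with limma over 18720 probes. The fit has 1 pooled value for each of 6 time points, so its p-values measure only the scatter of those values about a line. It called 172 slopes positive at an adjusted p below 0.05, which is 0.919% of the probes tested, and 71 negative. Of the 18 member probes it called 1, Idi1 A_43_P12843, with a slope of 0.31 (SE 0.0437) per doubling of time and an adjusted p of 0.0416. The other Idi1 probe, the 4 of Insig1 and the distant one of Fdps had slopes of 0.22 to 0.34 and adjusted p up to 0.0669 in limma, which misses the threshold. The remaining 11 had slopes between -0.10 and 0.10 and adjusted p of 0.17 and above in limma. With the slide as a block none of the 18720 slopes was called. The Idi1 call was also lost without 10, 15, 30, 60 or 120 min, when 0 member slopes were called, and 4 were called without 5 min.

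**Figure D3:**
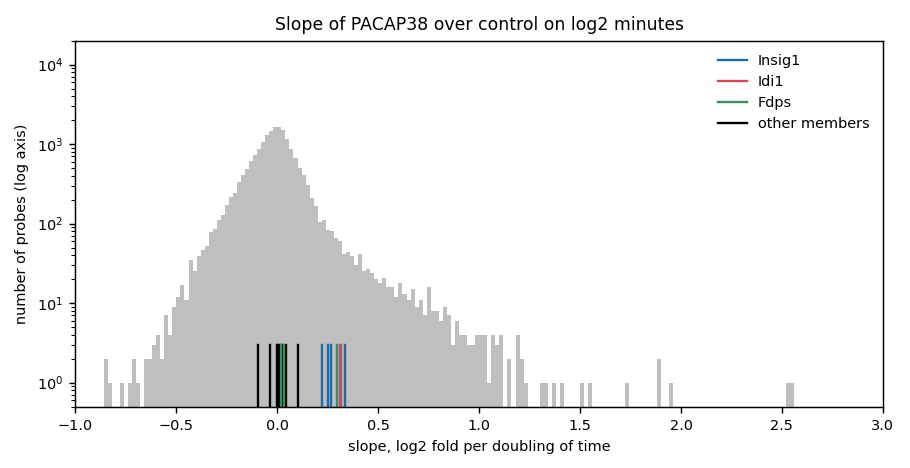
Histogram of the slopes of 18720 probes, in log2 ratio of PACAP38 to control per doubling of time, with the number of probes on a log axis; short lines mark the 18 member probes. The 4 Insig1 probes, both Idi1 probes and 1 Fdps probe stand between 0.22 and 0.34, and the rest within 0.10 of 0.

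Among the 22 enzymes of cholesterol synthesis, 31 probes of 22 genes were above background in at least 1 pool at 120 min. The members of this list that are described above were counted on 2 probes (6.45%, against 3.86% of all probes), of Idi1 and the distant one of Fdps, and no other enzyme was. At 1.5-fold, 8 of the 31 probes (25.8%, against 6.01% of all probes) were higher, from 7 genes, and 0 were lower, against 7.64%. Idi1, the kinases Mvk and Pmvk, the lanosterol demethylase Cyp51 and the sterol desaturase Sc5d were among these. Fdps was among them on its distant probe only, and its other probes had mean log2 ratios of 0.21 and 0.23. The median of the 30 measured probes of the list was 0.10. The differences thus lay in some steps and not in others, as the plot of the enzymes after 120 min shows.

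Mvk had log2 ratios of 0.94 and 0.89 at 120 min, Pmvk 0.69 and 0.76, Cyp51 0.61 and 0.78, and Sc5d 0.79 and 0.68 on 1 of its 2 probes and 0.11 and 0.03 on the other. Mvd, which lies between Pmvk and Idi1 in the pathway, had -0.12 and -0.06. Dhcr7, the last step to cholesterol in one branch, had -0.50 and -0.42.

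**Figure D4:**
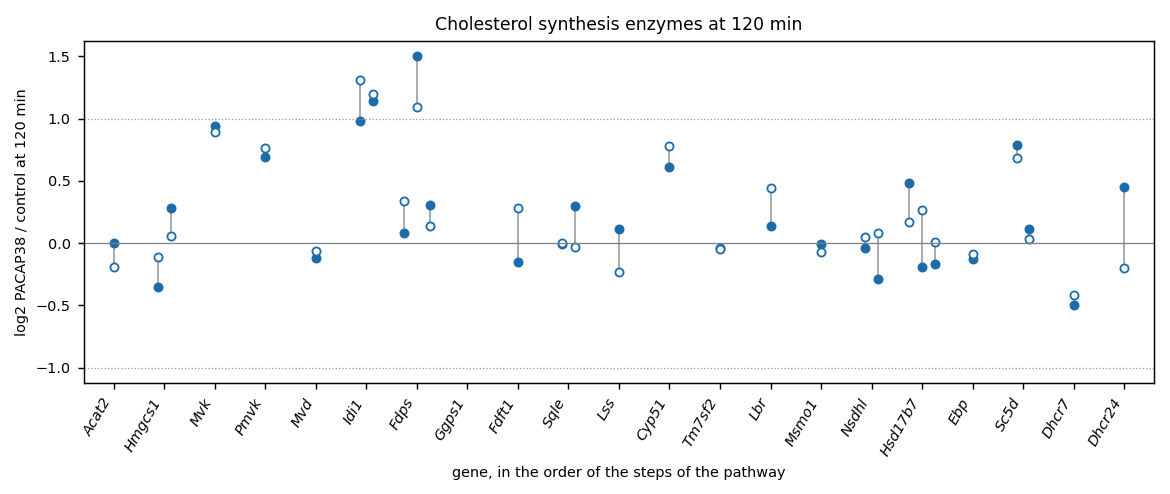
Log2 ratio of PACAP38 to control at 120 min for measured probes of cholesterol synthesis enzymes, in the approximate order of their steps; Ggps1 has no value because its PACAP38 signal was not well above background. Filled points are the array with PACAP38 in Cy5, open points that in Cy3, joined by a line for each probe, and dotted lines mark 2-fold. Mvk, Pmvk, Idi1, Cyp51, the distant Fdps probe and the Sc5d probe A_44_P356027 stand above 0.6 on both arrays, and Mvd and most of the other probes lie near 0.

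Of 11 genes of sterol sensing, Rnf139, an endoplasmic reticulum ubiquitin ligase with a sterol-sensing domain, was the gene counted beside Insig1. The list had 3 of 22 probes counted as higher at 60 min (13.6%, against 1.66% of all probes) and 3 of 21 at 120 min (14.3%, against 3.86%), most of them Insig1 probes. For Rnf139 the log2 ratios were 1.11 and 1.07 after 60 min and 1.81 and 1.83 after 120 min, a mean of 3.53-fold, which is above every member probe. Marchf6, a ubiquitin ligase that acts on Sqle, had 0.77 and 0.60 at 120 min on 1 probe and 0.98 and -0.02 on the other. The list as a whole had a median of 0.15 over 21 measured probes at 120 min.

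Stard4, a carrier of sterols between membranes, was counted at 120 min with 1.29 and 1.47, a mean of 2.60-fold, and was the 1 probe counted of 14 above background in the list of uptake and transport (7.14%, against 3.86% of all probes). Of the genes of efflux, esters and oxysterols, Abcg1, a cholesterol exporter, was counted as lower at 120 min on 1 of the 11 probes above background, where 3.03% of all probes were, with -1.23 and -1.16, a mean of 0.437-fold. Its second probe had -0.82 and -1.16 there, with the PACAP38 signal not well above background.

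Among the fatty acid genes that SREBP-1 serves, 17 probes of 11 genes were measured and none was counted at 2-fold at 120 min, against 3.86% of all probes. Elovl6, which elongates fatty acids, gave the 1 probe counted as higher at 1.5-fold (5.88%, against 6.01% of all probes), with 0.70 and 0.69 at 120 min, and had 0.41 and 0.60 on its second probe. Of the isoprenoid branch, 12 probes of 8 genes were above background at 60 and 120 min and none was counted at either limit, where at 1.5-fold 2.69% of all probes were higher at 60 min and 6.01% higher and 7.64% lower at 120 min. The medians at 120 min were 0.15 for the fatty acid genes and -0.29 for the isoprenoid branch.

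Over the 12 arrays, the genes whose log2 ratios followed the brightest Insig1 probe most closely, among 11243 genes measured on all arrays, were Gas1 (Pearson r of 0.974), the transcript named TC596960 (0.968) and Cdkn1b (0.967). For Idi1 they were Tuba4a (0.986), the transcript named TC632076 (0.983) and Sik1 (0.978). Tuba4a, an alpha-tubulin, had mean log2 ratios of 1.21 and 1.34 at 60 and 120 min, close to those of Idi1 in size, and Sik1, a kinase, had 3.66 and 4.08. For the brightest Fdps probe, which was not the one counted, they were Copz2 (0.959), the transcript named XM_222057 (0.951) and Dennd10 (0.938), a likeness between ratios with an SD of 0.15 over the arrays. These are descriptions over 12 arrays of 6 pairs of pools, which share their dyes and slides.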

How the data were processed

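The authors scanned 12 Agilent 2-colour rat arrays and made the values with Agilent Feature Extraction (11.0.1.1 in the submitters' processing notes). The deposited Cy3 and Cy5 intensities were background-subtracted and LOWESS dye-normalized by the authors' software. The deposited p-value of a spot belongs to its log10 ratio. The deposited table holds the log10 of Cy5 over Cy3, not turned for the dye exchange.

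PACAP38 over control was computed from these intensities, with the sign set by the dye that PACAP38 carried. Control spots were left out, as were 197 to 267 spots an array with an outlier flag, and spots of a probe were averaged. Signal over background and the number of arrays limit the precision. Levels across time points were set on 1 scale per channel by Aquantile. Slopes were fitted with limma 3.58.1 in R 4.3.3 on probes with a pool well above background on 2 of 2 arrays at 1 or more time points, with Benjamini-Hochberg adjustment, and the fit was tested on simulated data. Python 3.11.15 (numpy 2.4.6, pandas 2.3.3 and matplotlib 3.10.9) served for the rest. Promoters are those of RefSeq (GRCr8).

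The genes and the pathway lists were chosen with earlier results of these data known. Named are all probes of the 8 genes, genes of the lists with a counted probe, genes past 1.5-fold, and, for each of the 8 genes with a counted probe, the 3 genes most like its brightest probe, whether or not that probe was the one counted. Those past 1.5-fold, and Mvd and Dhcr7, were chosen after their values were seen. Some results under this rule are not reported here. Alternatives were other background corrections, the deposited table, 1 array alone, other rules and probes, and, for the slope, time in minutes, a slide block and leaving out time points in turn.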

Additional observations from a re-analysis of the deposited data

Results flagged for a closer look

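For 10 of the 18 measured probes both arrays lay above the control at one time point and both below it at another. The share of all probes that did so was not computed, so this count shows nothing particular to the members. These differences between time points were not tested one by one. For Idi1 the mean log2 ratio at 120 min was above that of 5 min by 1.19 on A_43_P12843 and above that of 10 min by 1.29 on A_44_P251944. For Fdps A_44_P226759 that of 120 min was above that of 10 min by 1.43.

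The other 7 were smaller. Hmgcs1 A_43_P11890 was higher at 30 min than at 120 min by 0.48, and A_44_P487240 higher at 15 min than at 10 min by 0.31. Insig2 was higher at 5 min than at 10 min by 0.33 on A_44_P231243 and by 0.38 on A_44_P987040. Sqle A_44_P1020541 was higher at 10 min than at 15 min by 0.25, and Srebf1 A_44_P501142 higher at 30 min than at 10 min by 0.32. Srebf2 A_44_P382747 was higher at 60 min than at 5 min by 0.50. The gap between the 2 arrays of a time point reached 1.07 in log2 ratio among the 18 probes.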

How the results depend on the processing

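The directions of the 7 counted ratios held under every background correction and on each array alone, and their sizes moved. The cause of the changes below was not tested. Member probes counted at 60 min were 3, against 1 with normexp and loess, 0 with normexp and median centring, 5 with PACAP38 in Cy5 alone, 1 on the brightest probe of each gene and 6 at 1.5-fold. At 120 min they were 4, against 0, 0 and 0 with normexp and loess, with median centring and on the brightest probes, and 8 at 1.5-fold (7 higher and 1 lower), which also gave 1 at 15 min and 2 at 30 min. With the 2-fold limit on the mean of both arrays, chosen after seeing the data, 5 were counted at 60 min and 6 at 120 min. In Cy3 alone 4 were counted at 60 min and 6 at 120 min. Shares over all probes were not computed for 1 array alone, for the brightest probes or for the limit on the mean.

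The median log2 ratio of the members moved by more than the SD of the 2 arrays in these cases. With normexp and loess it was 0.07 after 15 min, 0.15 after 60 min and 0.15 after 120 min, and with median centring 0.06 after 10 min, 0.21 after 15 min and -0.02 after 120 min. With PACAP38 in Cy5 alone it was 0.26, 0.37 and 0.31 at 30, 60 and 120 min, and in Cy3 alone 0.07 at 15 min and 0.29 at 120 min. On the brightest probes it was 0.05 at 15 min and 0.14 at 120 min, and with the dim probes 0.18 at 120 min.

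Slopes called numbered 243 over all probes and 1 among the members. They were 107 and 0 with normexp and loess, 1 and 0 with median centring, 77 and 0 in Cy5 alone, 128 and 5 in Cy3 alone, 5613 and 7 with time in minutes, 0 and 0 with the slide as a block, and 0 and 0 with no filter on dim probes. Leaving out each time point gave 0 to 415 over all probes and 0 to 4 among the members, with 415 and 4 without 5 min, 12 and 0 without 30 min, 1 and 0 without 60 min, and 0 and 0 without 10, 15 or 120 min.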
